A study of Homo sapiens
Mus musculus and Mus musculus and Homo sapiens with 3 samples.

Results

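The 8 factors described here name the identity of motor neurons as they leave the cell cycle: ISL1, ISL2, LHX3, LHX4, MNX1, LHX1, LMO4 and FOXP1. They were chosen by name, and all 8 were found among the 15472 gene symbols that the 4 deposited count tables shared (mouse symbols were put in capitals). Human and mouse pluripotent stem cells had been driven to a motor neuron fate in embryoid bodies (cell aggregates grown in suspension) and were profiled by 3' single-cell RNA sequencing on the 10x Genomics platform. Human replicate 1 was the line NCRM1 (induced pluripotent cells) and mouse replicate 1 was C57BL/6 embryonic stem cells, and these came from 1 mixed library that was deposited apart by species. Human replicate 2 was the line RUES1, labelled as induced pluripotent cells although it is known as an embryonic line, and mouse replicate 2 was again C57BL/6 embryonic stem cells. All cells carried a lentiviral barcode downstream of a GFP driven by the CAGGS promoter, had been through the same motor neuron differentiation treatment, and had been sorted for GFP, so there was no untreated group. Human cultures were sampled every 48 h and mouse cultures every 24 h, and the tables gave no day for a cell. Stages therefore had to be read from each cell's own transcripts.

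Of the 8 factors, 5 belong to the LIM-homeodomain family, which pairs a DNA-binding homeodomain with LIM domains that bind partner proteins. LHX3 and ISL1 act as a complex through the adaptor LDB1 to switch on motor neuron genes, whereas LHX3 without ISL1 acts in V2 interneurons. MNX1, also called HB9, is a homeodomain factor that keeps motor neurons from taking on interneuron features. In the spinal cord, neurons of the medial motor column, which supply axial muscle, keep LHX3 and LHX4. Neurons of the lateral motor column, which supply the limbs, lose these and gain FOXP1, and within that column ISL1 marks the medial division and LHX1 the lateral division. LMO4 holds LIM domains alone and competes for the same adaptor.

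The name homeodomain factors holds for 6 of the 8 by sequence. The in-frame run of codons TGG, TTN, CAN and AAN (N is any base) codes the core of the DNA-recognition helix of the homeodomain, and it was searched on the coding strand of 1 longest coding sequence per mouse gene. It was found once each in Isl1, Isl2, Lhx3, Lhx4, Mnx1 and Lhx1, and in neither Lmo4 nor Foxp1, and 214 of 21877 mouse coding genes (0.978%) held it. The 60 coding bases around it are shown because they set the factors side by side at the part that reads DNA, with the pattern in capitals (mouse genome GRCm38, GENCODE M21 annotation, coding strand).
Isl1: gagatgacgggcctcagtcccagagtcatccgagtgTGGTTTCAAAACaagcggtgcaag
Isl2: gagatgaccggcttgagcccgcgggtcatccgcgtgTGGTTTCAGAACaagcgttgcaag
Lhx3: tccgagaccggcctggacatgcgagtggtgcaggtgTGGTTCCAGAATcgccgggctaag
Lhx4: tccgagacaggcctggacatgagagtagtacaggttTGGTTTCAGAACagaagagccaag
Lhx1: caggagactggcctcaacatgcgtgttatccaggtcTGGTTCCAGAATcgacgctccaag
Mnx1: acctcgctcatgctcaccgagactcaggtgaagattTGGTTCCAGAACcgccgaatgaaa
Isl1 and Isl2 had the same base at 50 of the 60 positions (83.3%) and Lhx3 and Lhx4 at 48, the 2 closest of the 15 pairs, and Isl1 and Mnx1 were the farthest apart at 22 (36.7%). The Isl1 stretch lies in exon 4 at chr13:116303106-116303165 on the minus strand, and the Isl2 stretch in exon 4 at chr9:55544240-55544299 on the plus strand. The other 4 stretches cross an exon junction, all on the minus strand. That of Lhx3 runs over exons 4 and 5 within chr2:26202236-26202382, that of Lhx4 over exons 4 and 5 within chr1:155704846-155705204, that of Mnx1 over exons 2 and 3 within chr5:29474199-29474782, and that of Lhx1 over exons 3 and 4 within chr11:84520423-84521723.

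The tables held 28577630 to 83969715 UMIs in 1881 to 2783 cells per library part, with a median of 11137 to 28792 UMIs per cell. Depth was lower in human than in mouse, so every cell was thinned at random to 7000 UMIs before it was gated or counted as positive. Cells below that depth were left out (394 and 344 in human replicates 1 and 2, and 67 and 153 in mouse replicates 1 and 2). The mixed library shared 60 cell barcodes between its species, and these were left out. The 2 human parts came from different lines, and nothing in the labels ties the mouse parts to separate cultures. The p-values thus measure only the spread between these libraries, estimated as 1 spread over both species. A fit without 1 part leaves that species 1 part, which has no spread of its own. Calls gained or lost in such a fit rest on the spread of the other species, and its values describe 1 library. In sums over cells, fewer positive cells and less RNA per cell cannot be told apart.

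Stages were set from SOX2 (a progenitor factor), NEUROG2 (a proneural factor of cells leaving the cycle), ELAVL3 (an early neuronal RNA-binding protein) and STMN2 (a microtubule regulator of growing axons). SOX2-only cells had a SOX2 UMI and none of the others, and numbered 623, 455, 481 and 715, where 4 values are given here and later in the order human 1, human 2, mouse 1, mouse 2 by replicate. NEUROG2-only cells, with no ELAVL3 or STMN2, numbered 358, 265, 176 and 177, and cells with NEUROG2 together with ELAVL3 or STMN2, called early neurons here, numbered 263, 231, 275 and 321. A class with ELAVL3, no NEUROG2 and under 10 STMN2 UMIs held 146, 90, 420 and 257 cells, and STMN2-high cells, with at least 10 STMN2 UMIs and no NEUROG2, numbered 180, 230, 76 and 296. The ELAVL3 class still held SOX2 at 151 to 255 CPM, against 0.830 to 15.9 CPM in STMN2-high cells, so it is shown but not used as a step. None of the 8 factors was used to set a stage. The stages were not matched in STMN2 level between species. Early neurons held it at 1283, 1244, 283 and 689 CPM, and STMN2-high cells at 4420, 4468, 2300 and 3362 CPM.

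Human NEUROG2-only cells had no ELAVL3 or STMN2 UMI after thinning, though their full counts held ELAVL3 at 11.2 and 18.4 CPM. In these cells LHX3 had the highest share of the 6 homeodomain factors. Among human NEUROG2-only cells it was detected in 11.7% (95% exact Clopper-Pearson interval 8.59 to 15.5) and 8.68% (5.58 to 12.7), against 1.4% and 1.89% for ISL1 and 1.68% and 3.40% for MNX1. In mouse NEUROG2-only cells LHX3 was in 3.98% and 3.39% and ISL1 in 4.55% and 4.52%, and their intervals overlapped. Human LHX3 thus stood apart from human ISL1 at this stage in both lines, while mouse LHX3 and mouse ISL1 did not stand apart. Intervals cover counting error only. In SOX2-only cells LHX3 was in 0.280% to 0.642% of cells in the 4 parts and ISL1 in at most 1.25%, with 0 of 455 cells in human replicate 2. At 3 counts, that 0 allows up to 0.659% of cells with a UMI after thinning, and does not limit the cells that express ISL1, since their full counts held 2 ISL1 UMIs.

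Most LHX3-positive human cells at this stage had no partner factor detected, but so had most human cells of the stage. ISL1 was in 5 of 358 and 5 of 265 NEUROG2-only cells, and MNX1 in 6 and 9 of them. The share below thus does not show that LHX3 occurred apart from ISL1 and MNX1. In human NEUROG2-only cells 36 of 42 LHX3-positive cells of replicate 1 (85.7%, interval 71.5 to 94.6) and 16 of 23 of replicate 2 (69.6%, 47.1 to 86.8) had neither an ISL1 nor an MNX1 UMI. That share was 58.5% and 53.2% in early neurons and 25.7% and 10.6% in STMN2-high cells. It was lower at each later stage in both human parts, while the shares of ISL1 and MNX1 among all cells were higher at each. In mouse the LHX3-positive cells with neither were 2 of 7 and 2 of 6 in the NEUROG2-only stage, too few to set an order. They were 47.2% and 37.3% in early neurons and 41.7% and 27.8% in STMN2-high cells.

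**Figure D1:**
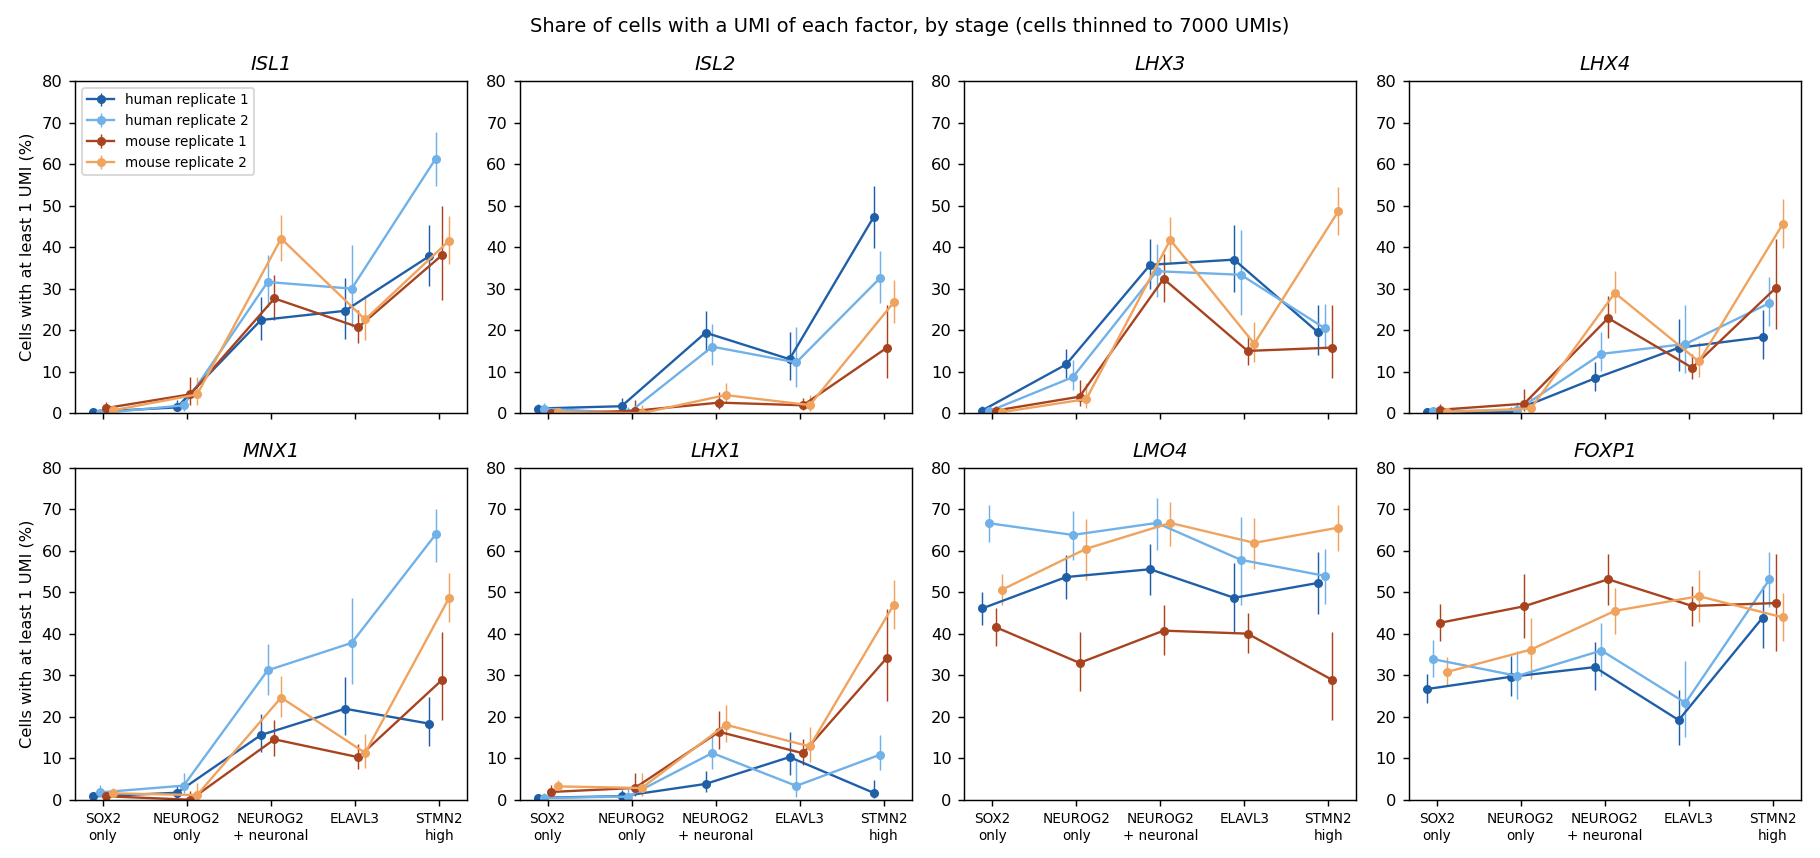
Percentage of cells with at least 1 UMI of each factor (y axis) in the 5 stages (x axis), with 1 line per library part and 95% exact Clopper-Pearson intervals as bars. ISL1, ISL2, LHX3, LHX4, MNX1 and LHX1 stay below 5% in SOX2-only cells, while LMO4 and FOXP1 lie between 26.6% and 66.6% there.

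Entry into the neuronal stage was tested as early neurons against NEUROG2-only cells, with edgeR's quasi-likelihood test on UMIs summed per part and stage, and with Benjamini-Hochberg adjustment over all genes. The same 6 factors rose in both species: ISL1, ISL2, LHX3, LHX4, MNX1 and LHX1. In human 6 of 8 were called, where 11.5% of 11625 genes tested rose and 25.4% changed, and in mouse 6 of 8, where 16.2% rose and 31.2% changed. The median of all genes was -0.06 and 0.01 (log2).

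ISL1, which sets motor neuron identity together with LHX3, was at 3.06 and 2.27 CPM in human NEUROG2-only cells and 60.0 and 92.9 CPM in early neurons. In mouse it was at 10.7 and 15.8 CPM and then at 135 and 260 CPM. The groups did not overlap in either species. The log2 fold change was 4.83 ± 0.36 (SE) in human (adjusted p = 1.01e-07) and 3.74 ± 0.26 in mouse (5.5e-08). ISL2, its close relative that is active after ISL1 in motor neurons, changed by 5.82 ± 0.38 in human (adjusted p = 2.65e-08) and by 5.96 ± 0.75 in mouse (1.75e-05), but reached different levels: 57.0 and 42.9 CPM in human early neurons against 3.59 and 10.6 CPM in those of mouse.

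LHX3 was at 25.7 and 15.4 CPM in human NEUROG2-only cells and 94.1 and 89.6 CPM in early neurons, and at 7.84 and 4.75 and then 86.5 and 138 CPM in mouse. Its rise was 2.11 ± 0.44 on the log2 scale in human (adjusted p = 0.00199), the smallest of the 6, and 4.10 ± 0.52 in mouse (2.03e-05). The difference between the species, -2.0 ± 0.71, did not pass the test (adjusted p = 0.121), although it did with no filter on low counts (-2.0, 0.0494). Without mouse replicate 1 the difference was -2.60. The human rise of LHX3 was not called without human replicate 2 (1.81, adjusted p = 0.166). LHX4, the paralogue of LHX3, rose by 5.05 ± 0.38 in human and 5.35 ± 0.30 in mouse. MNX1 rose by 4.59 ± 0.32 and 4.6 ± 0.34, nearly the same value in each species.

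LHX1, which besides lateral motor column neurons marks several ventral interneurons, rose by 2.81 ± 0.67 in human (adjusted p = 0.00516) and 3.22 ± 0.44 in mouse (3.71e-05). The human call was lost without human replicate 2 (1.18, adjusted p = 0.194). LMO4 and FOXP1 did not pass the test in either species, with log2 values of -0.04 and 0.14 for LMO4 and 0.19 and 0.42 for FOXP1. These had UMIs in progenitors already: in SOX2-only cells LMO4 was in 46.1%, 66.6%, 41.6% and 50.6% of cells in the 4 parts, and FOXP1 in 26.6%, 33.8%, 42.6% and 30.8%. Between species 0 of 8 factors were called in this step by edgeR or by DESeq2, where edgeR called 4.52% of all genes, and 2 of 8 (LHX3 and ISL1) had an unadjusted p under 0.05. A p above the threshold does not show that the species act alike.

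From early neurons to STMN2-high neurons the factors parted. In human ISL1, ISL2, LHX4 and FOXP1 rose and none fell, so that 4 of 8 were higher where 10.2% of all genes were and 23.3% changed. In mouse ISL2, LHX4 and MNX1 rose and none fell, 3 of 8 where 21.2% of all genes were higher and 44% changed.

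**Figure D2:**
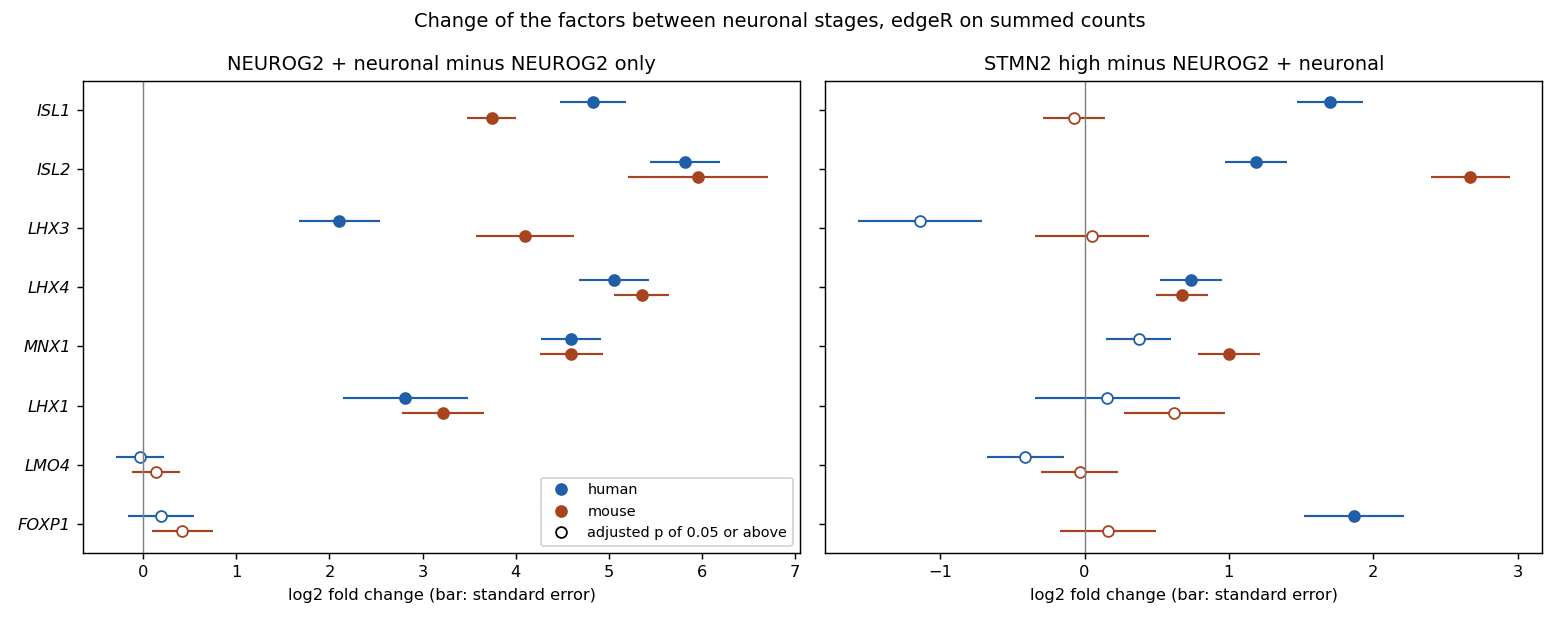
Log2 fold change (x axis) of each factor (y axis) from NEUROG2-only cells to early neurons (left) and from early neurons to STMN2-high cells (right), with standard errors as bars, human in blue and mouse in red, and open points for adjusted p of 0.05 or above. In the left panel ISL1 to LHX1 lie between 2.11 and 5.96. In the right panel ISL1 and FOXP1 are above 0 in human and near 0 in mouse.

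ISL1 was in 37.8% and 61.3% of human and 38.2% and 41.6% of mouse STMN2-high cells. It rose by 1.70 ± 0.23 in human (adjusted p = 4.16e-05) and its change was -0.08 ± 0.21 in mouse (0.814). The difference of the 2 changes was 1.78 ± 0.31 (adjusted p = 0.00192). Human levels went from 60.0 and 92.9 to 131 and 415 CPM, while mouse levels went from 135 and 260 to 171 and 240 CPM. Early neuron, ELAVL3 and STMN2-high cells were binned at 1 to 3, 4 to 9, 10 to 19 and 20 or more STMN2 UMIs. ISL1 was in 36.9%, 25.0%, 28.6% and 35.6% of these bins in human replicate 1 and in 43.5%, 48.8%, 48.2% and 62.8% in replicate 2. In mouse it was in 36.9%, 37.2%, 33.7% and 28.6%, and in 46.25%, 48.0%, 41.8% and 39.4%. The share was higher in the last bin than in the first in human replicate 2 only. The part of STMN2 in the species difference was not tested.

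ISL2 rose in both species, and by more in mouse. It rose by 1.19 ± 0.21 in human (adjusted p = 0.000635) and by 2.67 ± 0.27 in mouse (7.53e-07), with a difference of -1.49 ± 0.35 (0.012). The difference was not called by DESeq2 (-1.56, adjusted p = 0.0678), without human replicate 2 (-1.33, 0.0931) or without mouse replicate 2 (-1.73, 0.1). The human rise had an adjusted p of 0.0501 without human replicate 1. It was in 47.2% and 32.6% of human and in 15.8% and 26.7% of mouse STMN2-high cells, and in 19.4% and 16% against 2.55% and 4.36% of early neurons. Both human parts were thus above both mouse parts at both stages, but human early neurons also held more STMN2. Among early neurons and ELAVL3 cells with 1 to 3 STMN2 UMIs, ISL2 was in 6.15% and 4.84% of human and 4.50% and 2.50% of mouse cells. With 4 to 9 STMN2 UMIs the shares were 39.3% and 26.8% against 6.41% and 6.67%. The part of the STMN2 level in the species difference was not tested.

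FOXP1 rose by 1.87 ± 0.35 in human (adjusted p = 0.000849) and changed by 0.16 ± 0.33 in mouse (0.729), and the difference was 1.70 ± 0.48 (0.0321). The human rise lay mostly in replicate 2, where it went from 73.0 to 406 CPM, against 60.3 to 117 CPM in replicate 1. Without human replicate 2 the rise was 0.86 (adjusted p = 0.248) and the difference between species 0.66 (0.529). The share of STMN2-high cells with at least 5 FOXP1 UMIs was 1.67%, 20.4%, 1.32% and 6.76% in the 4 parts. The share with at least 1 UMI was much closer, at 43.9%, 53.0%, 47.4% and 43.9%. With stages set on unthinned counts, none of the 3 differences between species (3 of 8 where 9.97% of all genes were called) passed the test by edgeR. They were then 1.33 for ISL1 (adjusted p = 0.147), -1.15 for ISL2 (0.126) and 1.69 for FOXP1 (0.0555), the last nearly the same size as on thinned gates.

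LHX4 rose by 0.74 ± 0.22 in human (adjusted p = 0.0198) and 0.68 ± 0.18 in mouse (0.00555). Neither call was firm: the human one was lost without either human part, on unthinned gates, at a gate of 2 UMIs and by DESeq2, and the mouse one without mouse replicate 2 and at a gate of 2 UMIs. MNX1 rose by 1.00 ± 0.22 in mouse (adjusted p = 0.0012), a call lost without mouse replicate 2 (0.78, 0.0753), and its change was 0.38 ± 0.22 in human (0.253). The 2 human lines stood far apart for MNX1 in STMN2-high cells, with 18.3% positive in replicate 1 and 63.9% in replicate 2, and both mouse parts lay between them (28.9% and 48.6%).

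LHX3 was at 46.1 and 40.4 CPM in human STMN2-high cells, below its level in early neurons in both lines. The change of -1.14 ± 0.43 had an adjusted p of 0.0669, and it passed the test at a gate of 2 UMIs (-1.36, 0.0249) and with no filter on low counts (-1.15, 0.0227). In mouse the parts disagreed, with a level of 27.8 CPM in replicate 1 and 233 CPM in replicate 2. The pooled mouse change was 0.05 ± 0.39 (0.952), but -1.82 without mouse replicate 2 and 0.61 without mouse replicate 1. LHX1 and LMO4 did not pass the test in either species, at 0.16 and 0.62 for LHX1 and -0.41 and -0.03 for LMO4. In mouse LHX1 was called on unthinned gates (1.22, adjusted p = 0.0298). The mouse LMO4 change was -0.90 without mouse replicate 2.

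STMN2 counts gave a finer order of the cells in the NEUROG2-only, early neuron, ELAVL3 and STMN2-high stages together, and ISL2 and LHX3 followed different courses along them. In cells with 0, 1 to 3, 4 to 9, 10 to 19 and 20 or more STMN2 UMIs, ISL2 was in 1.81%, 6.15%, 39.3%, 51.2% and 42.9% of cells of human replicate 1. It was in 0.501%, 4.84%, 26.8%, 36.1% and 33.3% in human replicate 2. LHX3 was in 20.3%, 41.5%, 51.8%, 35.7% and 14.1% of the same bins in human replicate 1 and in 16.8%, 48.4%, 56.1%, 31.3% and 14.3% in replicate 2. LHX3 thus had its highest share at 4 to 9 STMN2 UMIs in both lines, and ISL2 at 10 to 19. In mouse replicate 2 LHX3 was highest in the last bin, at 55.6%, and ISL2 too, at 30.1%. In mouse replicate 1 LHX3 was in 12.8%, 35.1%, 30.8%, 24.1% and 19% of the bins, highest at 1 to 3 STMN2 UMIs, so the mouse parts ran opposite ways. Its last bin held 21 cells.

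Human and mouse levels in STMN2-high cells were compared directly on 4 sums, 2 against 2. By edgeR 0 of 8 factors were called, where 16.2% of 9681 genes were, 3 of 8 (LHX1, LHX4 and ISL2) had an unadjusted p under 0.05, and levels between species also carry differences in annotation and 3' capture. DESeq2 called 1, LHX1 (-3.06, adjusted p = 0.00232). With no filter on low counts 4 of 8 were called (ISL2, LHX1, LHX3 and LHX4). LHX1 was also called on unthinned gates (-3.04, 0.0476), and its difference was -5.78 without human replicate 2. The human sums held LHX1 at 2.14 and 31.1 CPM, the mouse sums at 93.4 and 197 CPM, a difference of -3.03 (adjusted p = 0.0681). LHX4 (-1.35, adjusted p = 0.0893) was lower in both human parts than in both mouse parts and ISL2 (1.42, 0.118) higher. With the replicate number as a block, LHX1 (-3.54, adjusted p = 0.0125) and LHX4 (-1.35, 0.0308) were called. The shares gave the same picture: LHX1 was in 1.67% and 10.9% of human and 34.2% and 47.0% of mouse STMN2-high cells, with an exact two-sided permutation p of 0.333, the smallest that 2 parts against 2 allow. The same p held for ISL2 and LHX4, and that of the other 5 factors was 1.

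Co-detection within a cell was set against the product of the 2 shares in the neuronal stages (early neurons, ELAVL3 and STMN2-high cells), as a description without a p. ISL1 and MNX1 were found together 2.01, 1.51, 2.94 and 1.90 times as often as that product in the 4 parts. LHX3 and LHX4 gave 1.86, 1.81, 2.10 and 1.93. LHX4 and MNX1 gave 2.35, 1.84, 3.23 and 2.07, and ISL2 and LHX4 gave 1.71, 1.93, 3.03 and 2.23. These pairs were above 1 in all 4 parts, as were others, among them ISL1 and FOXP1 (1.03 to 1.21) and LHX3 and LMO4 (1.04 to 1.12). Within STMN2-high cells alone, ISL1 and MNX1 gave 1.09 to 1.37 and LHX3 and LHX4 1.49 to 2.34. There LHX4 and MNX1 gave 1.23 to 2.25, and ISL2 and LHX4 1.09 to 2.20. Cells of different maturity are pooled in the neuronal stages, and the part of maturity in the ratios was not tested.

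ISL1 and LHX3, the pair that acts in 1 complex, gave 1.5, 0.938, 2.08 and 1.52, so human replicate 2 had no excess (1.15 on unthinned counts). Within early neurons alone it was 1.47, 1.00, 1.75 and 1.35. Within STMN2-high cells LHX3 and FOXP1 met less often than the product of their shares in all 4 parts, at 0.716, 0.521, 0.352 and 0.775, the third resting on 2 cells. On unthinned counts the 2 mouse ratios were 1.17 and 1.01 and the human ones 0.624 and 0.672, so that the mouse ratios were below 1 on thinned counts only. ISL1 and LHX1 were below 1 there as well, at 0.882, 0.783, 0.302 and 0.606, resting on 1, 12, 3 and 35 cells. LMO4 lay near 1 with every other factor in mouse replicate 2, between 0.972 and 1.16.

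**Figure D3:**
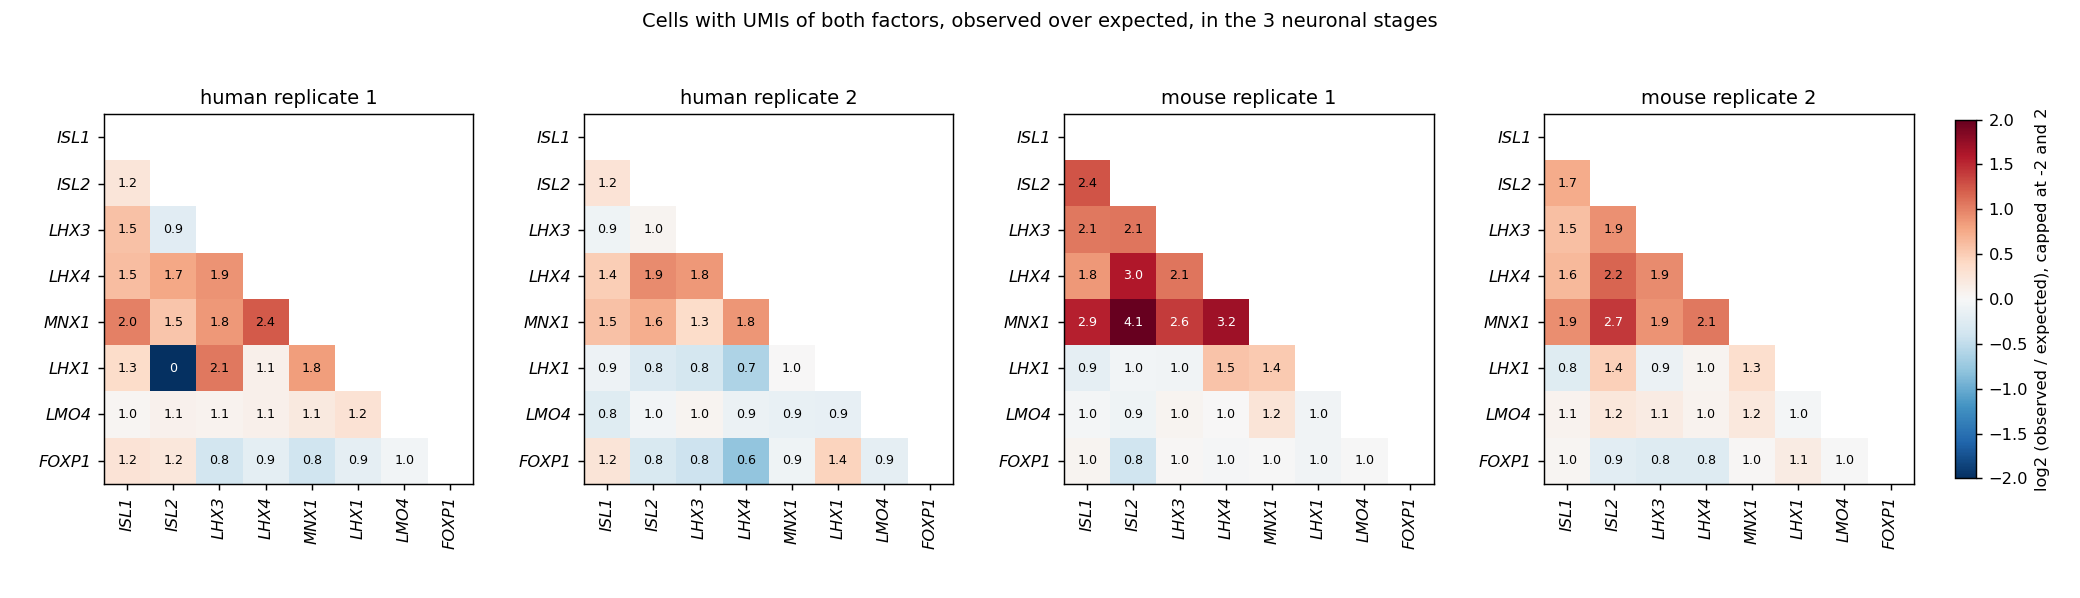
Observed over expected number of cells with UMIs of both factors of a pair (printed value, colour on a log2 scale capped at -2 and 2) in early neurons, ELAVL3 and STMN2-high cells of each library part. ISL1, ISL2, LHX3, LHX4 and MNX1 form a block above 1 in both mouse parts, while the row of FOXP1 is near or below 1 with LHX3 and LHX4.

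Each STMN2-high cell was then given a combination of ISL1, MNX1, LHX3, LHX4 and LHX1, without regard to ISL2, LMO4 or FOXP1. Cells with an ISL1 or MNX1 UMI, the motor neuron code, made up 84 of 180, 190 of 230, 40 of 76 and 185 of 296 cells in the 4 parts. Within the code, cells with LHX3 or LHX4 were 17.8%, 31.7%, 25.0% and 44.3% of STMN2-high cells, and cells with neither were 28.9%, 50.9%, 27.6% and 18.2%. Cells without LHX3 or LHX4 outnumbered those with them in both human parts, were about level in mouse replicate 1 (21 against 19 cells) and were the fewer in mouse replicate 2. Cholinergic genes (CHAT, SLC18A3, SLC5A7 or PRPH) had a UMI in 46.9% to 94.7% of cells with the code and LHX3 or LHX4, and in 71.4% to 88.9% of those with neither. They were also in 73.0%, 74.1%, 63.6% and 54.5% of STMN2-high cells with none of ISL1, MNX1, LHX3, LHX4 and LHX1. Of those cells, ISL2 was in 48.6%, 22.2%, 9.09% and 0% and FOXP1 in 39.2%, 44.4%, 36.4% and 27.3%.

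**Figure D4:**
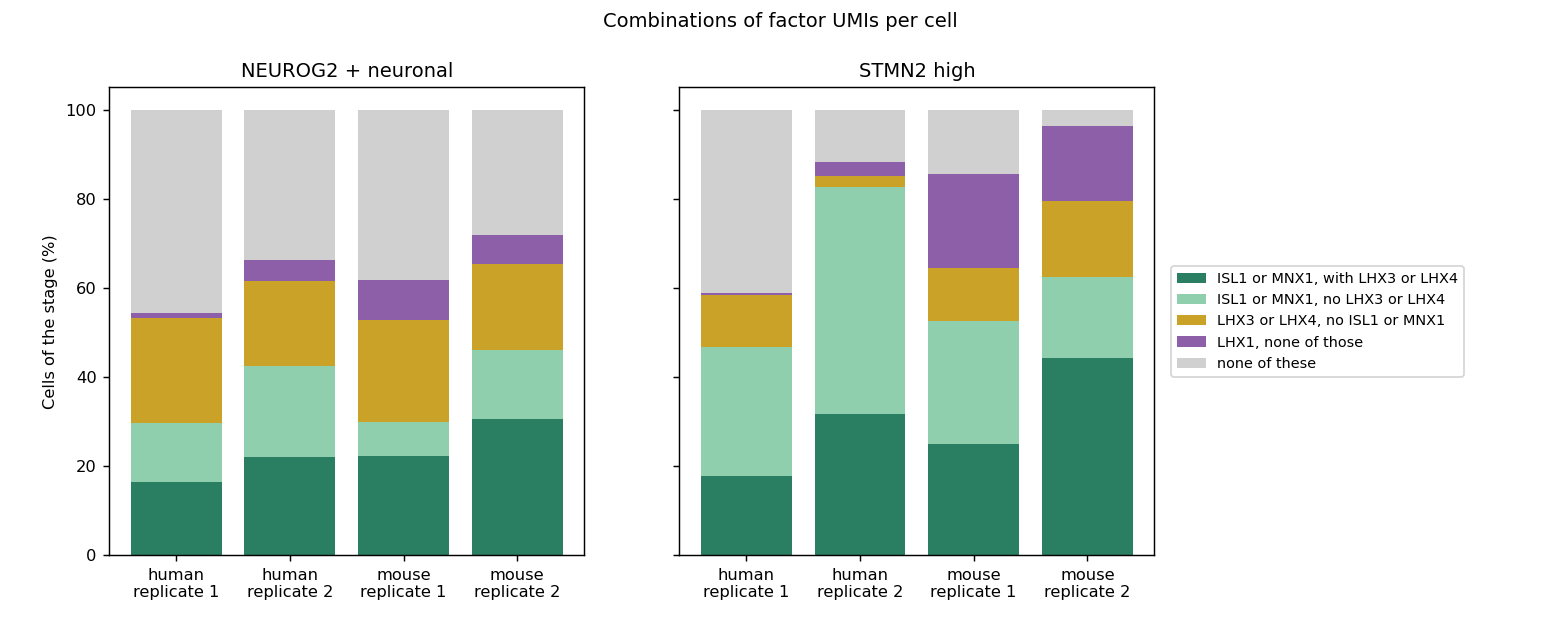
Stacked percentages of cells (y axis) by their combination of factor UMIs, in early neurons (left) and STMN2-high cells (right) of the 4 library parts (x axis). LHX1 without ISL1, MNX1, LHX3 or LHX4 is 21.1% and 16.9% of mouse STMN2-high cells and 0.556% and 3.04% of human ones. Human replicate 1 has the most STMN2-high cells with none of ISL1, MNX1, LHX3, LHX4 and LHX1, at 41.1%. ISL2, LMO4 and FOXP1 do not enter the combinations.

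Cells with LHX3 or LHX4 but no ISL1 or MNX1 were 11.7%, 2.61%, 11.8% and 16.9% of STMN2-high cells. SOX21, a factor found in V2a interneurons, was in 9.52%, 0%, 11.1% and 42.0% of them, SOX14 in 26% in mouse replicate 2 and 0% in the other parts, and VSX1 in 4.76% in human replicate 1 and 0% elsewhere. In cells with the motor neuron code SOX14 was in at most 1.37%, SOX21 in at most 0.763% and VSX1 in 0%. Cholinergic genes were in 55.6% to 72.0% of the cells with LHX3 or LHX4 alone. The combination thus held cells with interneuron genes, most of all in mouse replicate 2, and cells with cholinergic genes, and their identity was not settled. Cells with LHX1 and none of ISL1, MNX1, LHX3 and LHX4 were 21.1% and 16.9% of mouse STMN2-high cells, and FOXP1 was in 50.0% and 38.0% of them. V1 markers (EN1, FOXD3, PAX2) were in 43.8% and 52.0% of these mouse cells and V2b markers (GATA2, GATA3, TAL1) in 43.8% and 24.0%, against cholinergic genes in 6.25% and 18.0%. In human there were 1 and 7 such cells, and all 8 had a cholinergic gene, while V1 markers were in 14.3% of those in replicate 2. FOXP1 was in 85.7% and ISL2 in 14.3% of the 7 cells of human replicate 2.

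Combinations that mark columns were counted among cells with the motor neuron code. The medial combination, LHX3 or LHX4 without FOXP1, was 25.0%, 27.4%, 25.0% and 42.2% of them in the 4 parts. FOXP1 with ISL1 and no LHX1, LHX3 or LHX4, as in the medial division of the lateral column, was 36.9%, 34.7%, 25.0% and 11.9%. The combination of the lateral division (FOXP1, LHX1 and MNX1 without ISL1, LHX3 or LHX4) was found in 0 of 84, 2 of 190, 0 of 40 and 6 of 185 cells. The lateral-division combination was the rarest in all 4 parts. It needs UMIs of FOXP1, LHX1 and MNX1 in the same cell, while the medial combination needs a UMI of LHX3 or LHX4 and none of FOXP1. A rule that needs more UMIs tends to find fewer cells, so this rarity does not show that such neurons were scarce. Cells with LHX3 or LHX4 together with FOXP1 were 13.1%, 11.1%, 22.5% and 28.6%, and cells with none of the 3 were 21.4%, 17.9%, 22.5% and 8.65%. FOXP1 is a weak mark of a column at 1 UMI, since 26.6% to 42.6% of SOX2-only cells also had one. The species also differed in HOX genes in STMN2-high cells. By edgeR, HOXC6, HOXC8 and HOXC9 were called higher in human (log2 4.04, 11.7 and 8.89) and HOXA5 lower (-2.23). HOXC4 and HOXC5 (-1.62 and -4.35) were not called. Some mouse cells of the code held PHOX2A, a gene of visceral and branchial motor neurons, as given below. The part of these differences in the shares was not tested.

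Whether LHX3 or LHX4 splits the motor neuron code was tested on ISL2, LHX1, LMO4 and FOXP1, the factors that the gate did not use. FOXP1 was lower in cells with LHX3 or LHX4 in both species. It was at 62.8 against 194 CPM in human replicate 1, 110 against 644 CPM in human replicate 2, 80.6 against 101 CPM in mouse replicate 1 and 109 against 362 CPM in mouse replicate 2. All 4 parts had the same direction, and mouse replicate 1 the smallest gap. The log2 difference was -2.22 ± 0.21 in human (adjusted p = 1.11e-08) and -1.48 ± 0.20 in mouse (1.95e-05), and the difference between species of -0.74 ± 0.29 did not pass (0.254). No call between species was made for any of the 4 factors by edgeR or DESeq2, where edgeR called 2.33% of genes, and FOXP1 and LHX1 had an unadjusted p under 0.05. In human 3 of 4 factors were called, where 7.33% of 8281 genes were, and in mouse 3 of 4, where 2.13% were. Without human replicate 2 the human value was -1.48 (adjusted p = 0.0728), and without mouse replicate 2 the mouse value was -0.25 (0.918). DESeq2 gave -1.16 in mouse (adjusted p = 0.3).

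The human groups also differed in maturity. Cells with LHX3 or LHX4 had a mean of 19.8 and 23.2 thinned STMN2 UMIs, against 38.9 and 37.0 in cells with neither, while the mouse means were 14.5 and 24.7 against 17.3 and 24.6. Among cells with 10 to 29 STMN2 UMIs, FOXP1 was still lower, by -2.33 in human and -1.29 in mouse, and called in each species. ISL2 was higher with LHX3 or LHX4, by 1.18 ± 0.20 in human (adjusted p = 0.000209) and 1.57 ± 0.25 in mouse (0.000239). The human value fell to 0.39 (adjusted p = 0.63) at matched STMN2, and to 0.53 (0.593) without human replicate 2, whereas in mouse ISL2 was called at matched STMN2 (1.55, 0.00448) and not without mouse replicate 1 (1.48, 0.129) or at a gate of 2 UMIs (0.84, 0.6).

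LMO4 was higher with LHX3 or LHX4 in mouse, by 0.96 ± 0.18 (adjusted p = 0.00158), and its value of 0.44 ± 0.18 in human did not pass (0.151). The mouse call of LMO4 was lost without mouse replicate 1 (1.00, adjusted p = 0.125), without mouse replicate 2 (0.85, 0.698) and at a gate of 2 UMIs (0.99, 0.141). LHX1 was lower in human, with a log2 difference of -2.41 ± 0.68 (adjusted p = 0.0249). That value came from human replicate 2, at 4.83 against 32.9 CPM, and was 0.85 without it and -0.16 at matched STMN2. In mouse the LHX1 value was -0.03, with 77.1 against 5.47 CPM in replicate 1 and 121 against 159 CPM in replicate 2.

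**Figure D5:**
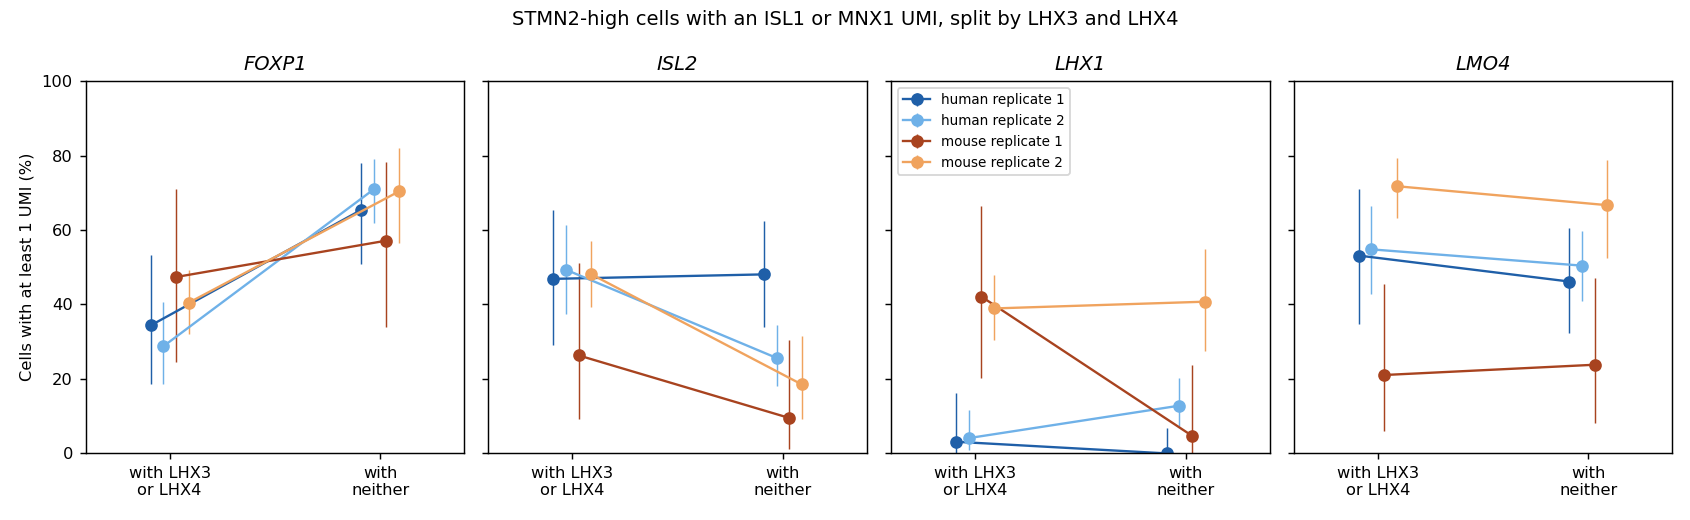
Percentage of cells with at least 1 UMI (y axis) of the 4 factors that the gate did not use, in STMN2-high cells with an ISL1 or MNX1 UMI, split by LHX3 or LHX4 UMIs (x axis), with 95% exact Clopper-Pearson intervals. FOXP1 is less frequent with LHX3 or LHX4 in all 4 parts, with a small gap in mouse replicate 1 (47.4% against 57.1%).

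Other genes differed along with this split. PHOX2A, a factor of visceral and branchial motor neurons, was at 627 and 76.9 CPM in mouse cells with the code but without LHX3 or LHX4, against 3.50 and 12 CPM with them, and at 0 CPM in both human groups. With all cells holding a UMI of a visceral marker left out, FOXP1 stayed called in each species. KRT8, a keratin of the epithelium list, was in 38.5% and 27.4% of human cells without LHX3 or LHX4 against 6.25% and 11.0% with them. In human KRT18 and EPCAM, which complete that list, were in at most 7.69% of either group, and the part of KRT8 in the result was not tested.

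Splitting the same cells by FOXP1 is not an independent test of the same relation, since LHX3 and LHX4 enter both. In human cells with a FOXP1 UMI, LHX4 was lower by a log2 value of -2.67 (adjusted p = 1.34e-07), LHX3 by -1.95 and ISL2 by -1.31. All 5 factors that this gate left free were called in human, where 4.52% of 8451 genes were. LMO4 was called at -0.65 and LHX1 at 1.59. At matched STMN2 only LHX4 was still called (-1.46, adjusted p = 0.016), and without human replicate 2 the calls of LHX4, LHX1 and LMO4 were lost while those of LHX3 and ISL2 held. In mouse 1 of 5 was called, LHX3 at -1.11, where 0.284% of genes were, and LHX4 (-0.72, adjusted p = 0.0777) and ISL2 (-0.71, 0.146) were not. The mouse LHX3 call was lost without mouse replicate 2 (-0.25, adjusted p = 0.985), on unthinned gates (-0.28, 0.901) and by DESeq2 (-0.92). LHX4 was called in mouse with no filter (-0.73), at a gate of 2 UMIs (-1.13) and without cells holding visceral markers (-0.67), and ISL2 at a gate of 2 UMIs (-1.30). Without mouse replicate 1 the mouse LHX4 value was -0.84. ALDH1A2, which makes retinoic acid in lateral motor column neurons, was at 49.1 CPM in FOXP1-positive and 0 CPM in FOXP1-negative cells of human replicate 2. It was at 0 CPM in both groups of human replicate 1. In mouse ALDH1A2 was higher with FOXP1 by 2.59 ± 0.58, just past the threshold (edgeR, adjusted p = 0.0499).

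Genes around the factors were followed in fixed lists. Of 17 upstream progenitor and proneural genes, 13 rose and 1 fell in human at entry into the neuronal stage, where 25.4% of all genes changed. Their median log2 value was 1.79 against -0.06 for all genes. In mouse 14 rose and 1 fell, where 31.2% of all genes changed (median 2.78 against 0.01). PAX6, a progenitor factor, was the gene that fell, at -1.31 and -1.15. From early to STMN2-high neurons 8 of 17 fell and 2 rose in human, where 23.3% of all genes changed. In mouse 9 fell and 5 rose, where 44% of all genes changed. Early neurons needed a NEUROG2 UMI and STMN2-high cells needed none, so falls of genes that go with NEUROG2 are tied to the gate. Rises of genes that go with STMN2 or ELAVL3 are tied to the gates likewise. OLIG2, the motor neuron progenitor factor, fell by 3.80 in human and 5.61 in mouse.

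Among 8 LIM partners, 2 rose and 1 fell in human and 4 rose in mouse at entry into the neuronal stage (medians 0.27 and 1.49), against 25.4% and 31.2% of all genes changed. LMO1, a LIM-only protein like LMO4, rose by 3.1 in human and 1.52 in mouse, and SSBP3, a stabiliser of LDB1 complexes, by 0.76 and 0.82. LDB1, the adaptor itself, was at 0.46 and 0.30 and did not pass in either species. Of the 7 other LIM-homeodomain genes 2 were testable, and LHX5 was called in mouse (4.13).

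Of 9 testable cholinergic and motor axon genes, 8 rose from early to STMN2-high neurons in human, where 10.2% of all genes rose. In mouse 9 rose, where 21.2% of all genes did (medians 2.02 and 2.51). SLC18A3, the vesicular acetylcholine transporter, rose by 2.02 and 2.12, and CHAT, which makes acetylcholine, by 2.92 and 1.42. Of 17 testable column and pool genes, 10 rose in human, where 23.3% of all genes changed, and 7 rose and 1 fell in mouse, where 44% did. The mouse count was near that background. Between motor neuron cells with and without LHX3 or LHX4, 7 of 14 column and pool genes were lower and none higher in human, where 7.33% of all genes changed. In mouse 2 were lower and 2 higher, where 2.13% of all genes changed. HOXC8, a brachial HOX gene, was among those lower in human, at -1.10. Counts at entry and at maturation share the early neuron sums and are not independent of each other.

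The genes whose levels followed a factor most closely over the 10 part and stage sums of a species, each part centred, were listed by Pearson correlation as a description. All r values lay between 0.971 and 0.997 and reflect 5 stages seen in 2 parts. ISL1 was followed in human by BICD1, MAP2, CELSR3, LMBR1L and PCDHB2, and in mouse by USP3, CDKN1C, SSBP3, LMO1 and SRRM4. LHX3 was followed by RGS16, MFNG, GSE1, SH3BGRL3 and CXXC4 in human and by TMF1, CCDC174, ATG4D, KDM5B and PBRM1 in mouse. MNX1 was followed by C1QL1, ANK2, SHD and CNTN2 in human and by DVL3, GDPD1, WBP1, AFAP1 and GNG2 in mouse. No gene was listed for the same factor in both species.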

How the data were processed

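The authors deposited raw UMI counts per gene and cell for 3 samples, 1 of them in a human and a mouse file, made with Cell Ranger 3.1.0 and the builds mm10 and hg38, per the submitters' processing notes. The gene annotation was not given in the sources used here. Cells needed 1000 UMIs, 500 genes and at most 10% mitochondrial UMIs. Scrublet (scanpy 1.11.5, expected rate 5%) removed 11, 24, 5 and 32 doublets, and 60 barcodes shared within the mixed library were left out. This left 2321, 1805, 1811 and 2674 cells, of which 1927, 1461, 1744 and 2521 reached 7000 UMIs and were staged after thinning. Shares used thinned counts, and CPM and tests used the full counts of the same cells.

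Counts were summed per library part and class and tested with edgeR 4.0.16 (R 4.3.3, TMM, quasi-likelihood, library part as block, class by species), and a gene was called at a Benjamini-Hochberg adjusted p under 0.05 over all genes tested. The standard error is the log2 fold change divided by the root of the F statistic. Shares in STMN2-high cells were compared by an exact permutation test. Alternatives were unthinned gates, a gate of 2 UMIs, DESeq2 size factors, no filter, DESeq2 1.42.0, each part left out, and a replicate block. Limiting cells to 10 to 29 STMN2 UMIs and removing cells with visceral markers were chosen after seeing the data. On simulated counts with 4-fold changes, 87.0% were recovered for human onset, 92.0% for the human LHX3 split and 35.2% for human against mouse. The members and gene lists were chosen with earlier results of these data known. The text names the members, genes of the lists and, for ISL1, LHX3 and MNX1, genes among the 5 most correlated per species (10 CPM added, mean of 20 CPM or more). Results that need some genes of the fixed lists or of the correlated genes are not reported here.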

Additional observations from a re-analysis of the deposited data

Results flagged for a closer look

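The change from early to STMN2-high neurons differed between human and mouse for 3 of the 8 factors by the interaction test. The human minus mouse difference was 1.78 (log2) for ISL1, -1.49 for ISL2 and 1.70 for FOXP1. Leaving out 1 library part at a time, that of ISL1 had an adjusted p above 0.05 only without mouse replicate 2, that of ISL2 without replicate 2 of either species, and that of FOXP1 without human replicate 2 or mouse replicate 1. Each of these fits left 1 part in a species, so its p-value rested on the spread of the other species. The stages were not matched in STMN2 level between species. No sample group reached the 4 samples needed to look for outlying samples.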

How the results depend on the processing

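Counts of genes past an adjusted p of 0.05 moved with the library parts and with the gates, tests and cells used. A fit without 1 part leaves that species 1 part with no spread of its own. Leaving out 1 part at a time gave 780 to 1417 genes for human onset (2953 with all parts), 1415 to 2500 for mouse onset (3624), 631 to 1394 for human maturation (2712) and 1971 to 4369 for mouse maturation (5112). The human minus mouse counts were 76 to 394 for onset (525) and 264 to 978 for maturation (1159). The LHX3 split gave 78 to 383 in human (607), 44 to 86 in mouse (176) and 2 to 167 for the difference (193). The FOXP1 split gave 98 to 311 in human (382) and 7 to 85 in mouse (24), and human against mouse gave 196 to 1036 (1571).

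A gate of 2 UMIs gave 1962 genes for human onset, 179 for the onset difference, 265, 69 and 69 for the LHX3 split in human, mouse and their difference, and 96 for the mouse FOXP1 split. Unthinned gates gave 219 for the onset difference and 654 and 45 for the FOXP1 split in human and mouse. DESeq2 gave 166, 25 and 45 for the LHX3 split and 113 and 5 for the FOXP1 split. No filter gave 56 for the mouse FOXP1 split and 2753 for human against mouse. Matched STMN2 gave 147 and 31 for the human LHX3 split and the species difference and 18 for the human FOXP1 split. Without cells holding visceral markers the counts were 89 for the LHX3 difference and 52 for the mouse FOXP1 split.

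The replicate number as a block in human against mouse gave 2338 genes. Number 1 marks the shared mixed library and number 2 no shared library, and the deviations of same-numbered parts had r = 0.351 over 9681 genes. Beyond LHX1 and LHX4, no other factor was called with the block.

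Of 485 alternatives over 72 factor results, 382 kept direction and side of the threshold, 48 lost and 25 gained a call, and 30 changed direction. The cause was not tested. For LMO4 these were human onset on unthinned gates (0.0059), mouse onset and mouse maturation at a gate of 2 UMIs (-0.15 and 0.090), mouse maturation with DESeq2 size factors (0.037), and the share at 2 UMIs (-1.02 percentage points). At a gate of 2 UMIs they were also FOXP1 at human onset (-0.016), LHX1 at human maturation (-0.51) and LHX3 at mouse maturation (-0.47). ISL1 at mouse maturation was 0.61 on unthinned gates, 0.012 with size factors and 0.033 by DESeq2, where LHX3 was -0.043. LHX1 in the mouse LHX3 split was 0.44 on unthinned gates and 1.53 by DESeq2. On unthinned counts the FOXP1 share was -11.9 percentage points and the mean log2 ISL1 and LHX1 co-detection 0.38. Leaving out 1 part at a time, the ranges of those that changed direction were -0.046 to 0.0061 for LMO4 at human onset and -1.86 to 0.34 for LHX1 at human maturation. In mouse they were -0.091 to 0.34 for LMO4 at onset, and at maturation -0.27 to 0.16 for ISL1, -1.82 to 0.61 for LHX3, -0.90 to 0.21 for LMO4 and -0.57 to 0.53 for FOXP1. For the maturation difference LHX3 ran from -1.76 to 0.69. In the LHX3 split LHX1 ran from -2.68 to 0.85 in human and -0.34 to 3.86 in mouse, LMO4 from -0.093 to 0.60 in human and the FOXP1 difference from -2.01 to 0.022. In the human FOXP1 split LHX1 ran from -0.37 to 1.68 and LMO4 from -0.91 to 0.013.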
